A study of Mus musculus with 6 samples.

Results

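The 10 core circadian clock genes *Per1*, *Per2*, *Per3*, *Cry1*, *Cry2*, *Arntl*, *Clock*, *Nr1d1*, *Nr1d2* and *Dbp* were examined in sorted osteoblasts (OBs) of ectopic bone that BMP-2 had induced. They were chosen by name as textbook components of the clock, by a rule that uses no measured value but with earlier results of these data known, and all 10 were found among the 23284 genes listed. All 10 were also among the 19526 genes whose mean over the 6 samples was above 0.1 FPKM, the set in which the days were compared. FPKM scales the fragments of a gene by its exon length and by the mapped reads of its library, so levels are given per length.

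The OBs came from male *Col2.3*-ECFP mice, 12 to 16 weeks old, that carried a collagen sponge with 2.5 μg of BMP-2 under the skin of the back. The transgene places enhanced cyan fluorescent protein (ECFP) under a fragment of the type I collagen promoter, so that the sort selected cells in which this promoter had been active. RNA-seq was performed on 3 samples of day 10 and 3 samples of day 14 after implantation, titled as biological replicates, and the number of mice behind each sample is not given in the sources used here. All 6 samples carried the transgene and BMP-2, CD45+ and dead cells were gated out, and collagenase was applied 2 times to the day 14 tissue against 1 time to that of day 10. Digestion and day therefore cannot be told apart. The titles and source names place the later samples on day 14, but the free-text descriptions give later days for day 14 replicates 2 and 3. The time of day at which tissue was taken is not given in the sources used here. For genes that cycle daily, a difference in the hour of collection cannot be told apart from one in the day after implantation.

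The circadian clock is a transcriptional feedback loop that runs in nearly every cell, OBs included. ARNTL (BMAL1) and CLOCK bind E-boxes and activate the *Per* and *Cry* genes, whose proteins return to the nucleus and repress that activity. They also activate *Nr1d1* and *Nr1d2*, whose products (REV-ERBα and REV-ERBβ) repress *Arntl* through ROR response elements, and *Dbp*, whose product activates further genes through D-boxes. In tissues in which the clock cycles, *Arntl* therefore peaks at a different time from *Dbp*, *Nr1d1* and *Per3*.

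Start regions are shown for 4 members, since the loop acts through short elements in such sequences. Windows of 300 bases, from 250 before to 50 after an annotated start, were taken from RefSeq (GRCm38.p6), and 9 of the 10 members had at least 1 window, 13 windows in all. *Per2* had no entry. Both strands were searched for the E-box CACGTG, the related CACGTT, the D-box TTATGTAA or TTACGTAA, the ROR element core TAGGTCA or TGGGTCA, and the cyclic AMP response element TGACGTCA. *Arntl* is shown because the ROR element lay just downstream of an annotated start, *Per1* for its E-box, *Per3* for its pair of D-boxes and *Cry2* because it separated the days, with matches in capitals and each window read 5′ to 3′ on the strand of its gene.
Arntl, chr7:113207261-113207560, plus strand: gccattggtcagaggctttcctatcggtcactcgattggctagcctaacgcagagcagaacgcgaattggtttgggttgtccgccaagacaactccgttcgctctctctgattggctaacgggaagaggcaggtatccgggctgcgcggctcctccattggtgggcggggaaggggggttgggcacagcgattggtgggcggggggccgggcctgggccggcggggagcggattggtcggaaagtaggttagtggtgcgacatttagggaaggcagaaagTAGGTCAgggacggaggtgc
Per1, chr11:69098699-69098998, plus strand: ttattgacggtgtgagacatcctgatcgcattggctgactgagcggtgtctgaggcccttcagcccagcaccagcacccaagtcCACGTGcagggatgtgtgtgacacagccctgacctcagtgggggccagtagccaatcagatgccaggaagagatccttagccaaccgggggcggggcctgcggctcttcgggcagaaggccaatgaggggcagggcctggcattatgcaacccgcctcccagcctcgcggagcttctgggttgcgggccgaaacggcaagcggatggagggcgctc
Per3, chr4:151044616-151044915, minus strand: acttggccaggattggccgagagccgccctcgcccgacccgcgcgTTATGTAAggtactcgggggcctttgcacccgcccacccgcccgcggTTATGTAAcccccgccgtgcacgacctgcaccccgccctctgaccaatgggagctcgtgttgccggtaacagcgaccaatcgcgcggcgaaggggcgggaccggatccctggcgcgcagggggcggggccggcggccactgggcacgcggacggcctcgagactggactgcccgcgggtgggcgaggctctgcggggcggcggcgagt
Cry2, chr2:92434020-92434319, minus strand: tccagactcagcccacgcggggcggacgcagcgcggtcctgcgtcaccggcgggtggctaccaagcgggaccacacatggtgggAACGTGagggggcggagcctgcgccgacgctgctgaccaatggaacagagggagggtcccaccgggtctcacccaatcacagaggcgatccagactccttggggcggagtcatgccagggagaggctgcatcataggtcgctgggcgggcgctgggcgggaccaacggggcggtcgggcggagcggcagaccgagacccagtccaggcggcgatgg

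In these windows the ROR element core of *Arntl* began 31 bases after the start, and the E-box of *Per1* began 166 bases before it. The nearer of the D-boxes of *Per3* began 158 bases before the start, and the match in *Cry2*, which reads AACGTG on the printed strand, began 166 bases before it. Among the windows not printed, *Cry1* held an E-box and a CACGTT, and *Nr1d1* held a CACGTT. No match was found in the windows of *Clock*, *Nr1d2* and *Dbp*, which says only that these letters are not in these windows. Over all 32851 windows of the same length, the E-box was present in 7.15%, CACGTT in 4.68%, the D-box in 1.06%, the ROR element core in 6.45% and the cyclic AMP response element in 1.79%. The last was found in 0 member genes.

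The libraries held an estimated 4509324 to 7726432 mapped reads each, at which 3 reads on 1000 bases correspond to 0.388 to 0.665 FPKM. The 10 OB markers examined, among them *Runx2*, *Sp7* and *Col1a1*, were detected, with a summed level of 53800 to 100000 FPKM on day 10 and 39300 to 76600 FPKM on day 14. All 10 had lower means on day 14, and 0 passed the adjusted p described below. Over 2-fold lower were 5 of the 10, against 1639 of 19526 genes. *Sp7* did not overlap, at 73.7, 51.1 and 40.1 FPKM and then 9.79, 27.9 and 4.09 FPKM (adjusted p = 0.309 from limma). The day 14 samples differed among themselves, as in *Dlx5*, at 9.88, 8.19 and 7.56 FPKM and then 0.979, 9.84 and 1.01 FPKM. Markers of other cells summed to less than the OB markers in each sample but were not absent. Some single markers exceeded some OB markers. *Ctsk*, listed for osteoclasts, was above *Sp7* and *Runx2* in all 6 samples, and *Lyz2*, a myeloid marker, reached 454 FPKM in day 14 replicate 3, where *Alpl* was at 186 FPKM. *Ptprc*, which encodes CD45, the antigen gated out, was at 0.134 to 2.99 FPKM, and none of the markers was at 0 in all 6 samples. Myeloid markers summed to 34.6, 145 and 123 FPKM on day 10 and to 255, 11.5 and 602 FPKM on day 14, and chondrocyte markers to 1590, 1370 and 760 FPKM and then 232, 2400 and 172 FPKM. The 8 endothelial markers summed to 2.12 to 4.46 FPKM on day 10 and 5.15 to 10.3 FPKM on day 14, without overlap. All 8 means were higher on day 14, *Kdr* only slightly (log2 fold change 0.08), and no single value exceeded 2.39 FPKM. The sums of the 7 osteoclast markers did not overlap either, at 446, 488 and 447 FPKM and then 627, 655 and 676 FPKM. They came mainly from *Ctsk* (403 to 425 FPKM and then 574 to 614 FPKM), and 2 osteoclast means were higher and 5 lower. The part of these cells in the results below was not tested, and in bulk samples a change in the share of cells cannot be told apart from a change in RNA per cell.

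None of the 10 clock genes passed an adjusted p of 0.05 between the days (limma on log2(FPKM + 0.1), Benjamini-Hochberg over all genes tested), against 3 of 19526 genes, or 0.0154%. At an unadjusted p under 0.05, *Arntl* and *Cry2* were higher on day 14 and no member was lower, where 5.60% of all genes were higher and 4.40% lower. No member had a fold change over 2, which 13.6% of all genes had. In *Per2*, *Cry2* and *Dbp*, all 3 samples of day 14 lay above all 3 samples of day 10. Over all genes, 7.59% were separated in this direction and 6.67% in the other, in which no member was. The mean log2 value was higher on day 14 in 6 members and lower in 4, with a median log2 fold change of 0.30 over the members and −0.04 over all genes tested. Among the 9960 genes at a mean of 1 to 50 FPKM, a window that holds all members, the median was 0.00.

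**Figure D1:**
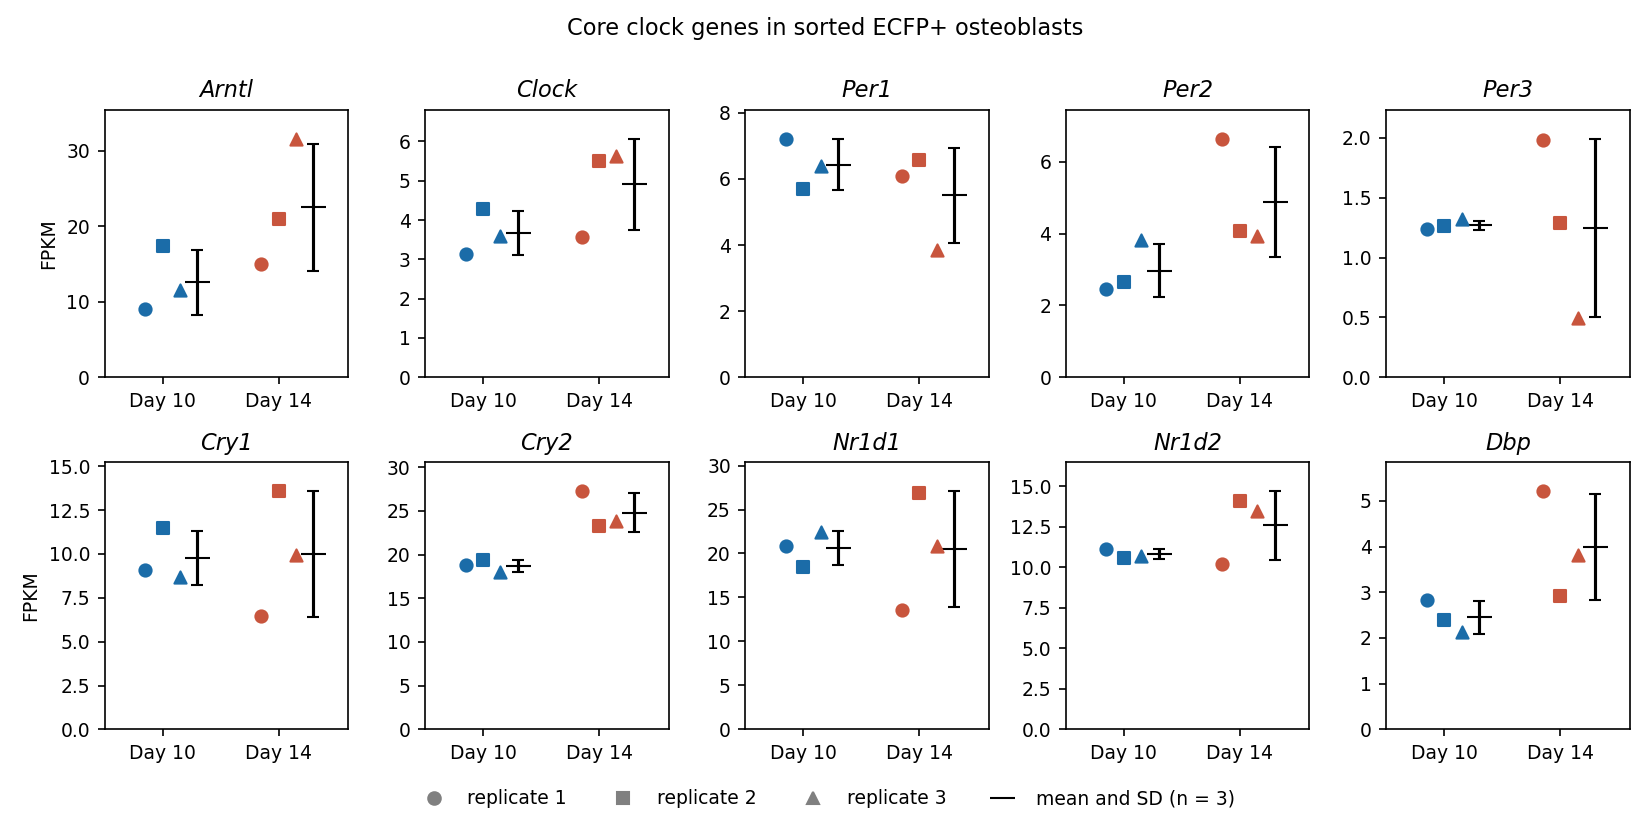
FPKM (vertical axes, each from 0) of the 10 clock genes in the 3 samples of day 10 and the 3 samples of day 14, with 1 point per sample and the mean ± SD per day. The days are separate in *Per2*, *Cry2* and *Dbp*, and the bars of day 14 are longer than those of day 10 in each gene.

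*Arntl*, which encodes the ARNTL partner of CLOCK (chromosome 7, 113207465 to 113314126, plus strand; all gene positions from GENCODE vM21, mm10), was at 8.99, 17.4 and 11.5 FPKM in day 10 replicates 1, 2 and 3. On day 14 it was at 15.0, 21.0 and 31.6 FPKM. Day 14 replicate 3 was the highest and day 10 replicate 1 the lowest, but day 10 replicate 2 exceeded day 14 replicate 1, so the days overlapped. The means were 12.6 ± 4.30 and 22.5 ± 8.43 FPKM (SD, n = 3 each). The log2 fold change was 0.82 ± 0.32 (SE), with a 95% interval of 0.09 to 1.55, and the adjusted p from limma was 0.445 (unadjusted p = 0.0316). It was the largest difference among the members and depended on single libraries, with log2 fold changes of 0.54 without day 14 replicate 3 and 1.08 without day 14 replicate 1 or without day 10 replicate 2. Day 14 replicate 3 also had the highest sum of myeloid markers (602 FPKM), while day 14 replicate 2, second in *Arntl*, had the lowest (11.5 FPKM), and their part in the difference was not tested. *Clock*, which encodes the other subunit (chromosome 5, 76209868 to 76304792, minus strand), was at 3.14, 4.27 and 3.60 FPKM on day 10 and 3.58, 5.51 and 5.64 FPKM on day 14. Its days overlapped as well, with a log2 fold change of 0.39 ± 0.26 (SE) and an adjusted p of 0.685. The same libraries were lowest (day 10 replicate 1) and highest (day 14 replicate 3) for both subunits, and *Arntl* was 2.86 to 4.06 times as high as *Clock* on day 10 and 3.80 to 5.61 times on day 14.

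*Cry2*, a cryptochrome of the repressor complex (chromosome 2, 92403646 to 92434043, minus strand), was at 18.8, 19.4 and 18.0 FPKM on day 10 and 27.3, 23.3 and 23.8 FPKM on day 14. The days did not overlap, and the samples of each day lay close together. The means were 18.7 ± 0.689 and 24.8 ± 2.19 FPKM, with a fold change of 1.32 on the FPKM + 0.1 scale and a log2 fold change of 0.40 ± 0.14 (SE). The adjusted p from limma was 0.421 (unadjusted p = 0.0235), and the two-sided exact permutation p was 0.1, the smallest that 3 samples against 3 allow. The log2 fold change stayed between 0.33 and 0.44 under all alternatives run. *Cry1*, its paralog (chromosome 10, 85131700 to 85185064, minus strand), was at 9.08, 11.5 and 8.68 FPKM on day 10 and 6.46, 13.6 and 9.92 FPKM on day 14. Its day 14 samples enclosed all 3 of day 10, with a log2 fold change of −0.02 ± 0.28 (SE) and a 95% interval of −0.65 to 0.62. *Cry2* exceeded *Cry1* in each sample, by a ratio of 2.07, 1.68 and 2.08 on day 10 and 4.22, 1.71 and 2.40 on day 14. The largest ratio came from day 14 replicate 1, which was highest for *Cry2* and lowest for *Cry1*.

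*Per2*, a period gene whose protein pairs with the cryptochromes (chromosome 1, 91415982 to 91459324, minus strand), was at 2.46, 2.65 and 3.81 FPKM on day 10 and 6.64, 4.07 and 3.92 FPKM on day 14. The days did not overlap, but the gap between day 10 replicate 3 and day 14 replicate 3 was small beside the spread within the days. The log2 fold change was 0.68 ± 0.30 (SE), with an adjusted p of 0.500 from limma and an exact permutation p of 0.1, and it was 0.44 without day 14 replicate 1. *Per1*, which also responds to acute stimuli through cyclic AMP and glucocorticoid signals (chromosome 11, 69095217 to 69109960, plus strand), was at 7.22, 5.69 and 6.4 FPKM on day 10 and 6.09, 6.57 and 3.86 FPKM on day 14. The samples of both days overlapped apart from day 14 replicate 3, and the log2 fold change of −0.25 ± 0.25 (SE) was −0.02 without that library. The ratio of *Per2* to *Per1* was 0.341, 0.465 and 0.595 on day 10 and between 0.620 and 1.09 on day 14, so that it was higher in all 3 samples of day 14. This ratio was looked at after the values were known and is given without a test.

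*Per3*, the period gene with the lowest level (chromosome 4, 151003652 to 151044665, minus strand), was at 1.24, 1.26 and 1.32 FPKM on day 10 and 1.98, 1.29 and 0.492 FPKM on day 14. The day 10 samples were nearly equal, whereas day 14 held both the highest and the lowest of the 6 values, a range of 4.02-fold. The lowest value, in day 14 replicate 3, rested on an estimated 19.9 reads. The log2 fold change was −0.20 ± 0.50 (SE), and it was 0.31 without day 14 replicate 3 and −0.60 without day 14 replicate 1. In the same library in which *Per3* was lowest, *Arntl* was highest, and the ratio of *Arntl* to *Per3* there was 64.3, against 7.23 to 16.2 in the other 5 libraries.

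*Nr1d1*, which encodes REV-ERBα (chromosome 11, 98767932 to 98775333, minus strand), was at 20.8, 18.5 and 22.4 FPKM on day 10 and 13.6, 26.9 and 20.9 FPKM on day 14. Day 14 held the lowest value, in replicate 1, and the highest, in replicate 2, and the means of 20.6 ± 1.93 and 20.5 ± 6.63 FPKM differed by less than the spread. The log2 fold change was −0.06 ± 0.24 (SE), with a 95% interval of −0.62 to 0.50. *Nr1d2*, which encodes REV-ERBβ (chromosome 14, 18204054 to 18239127, minus strand), was at 11.1, 10.6 and 10.7 FPKM on day 10 and 10.2, 14.1 and 13.5 FPKM on day 14. It varied least of the members, 1.38-fold from the lowest to the highest sample, and its log2 fold change was 0.21 ± 0.18 (SE) with an adjusted p of 0.780. The ratio of *Arntl* to *Nr1d1*, the repressor of its promoter, was 0.431, 0.936 and 0.512 on day 10 and 1.10, 0.780 and 1.51 on day 14, and the days overlapped.

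*Dbp*, which encodes a D-box activator and is often read as an output of the clock (chromosome 7, 45705088 to 45710203, plus strand), was at 2.84, 2.40 and 2.12 FPKM on day 10 and 5.22, 2.92 and 3.81 FPKM on day 14. The days did not overlap, although day 10 replicate 1 and day 14 replicate 2 were nearly equal. The log2 fold change was 0.65 ± 0.29 (SE), with an adjusted p of 0.510 from limma and an exact permutation p of 0.1. It was 0.44 without day 14 replicate 1 and 0.85 without day 14 replicate 2, and the values rested on an estimated 21.6 to 43.4 reads. Day 14 replicate 1, the highest library for *Dbp*, *Per2* and *Cry2*, also had the highest sum of endothelial markers (10.3 FPKM), whose part in these differences was not tested.

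**Figure D2:**
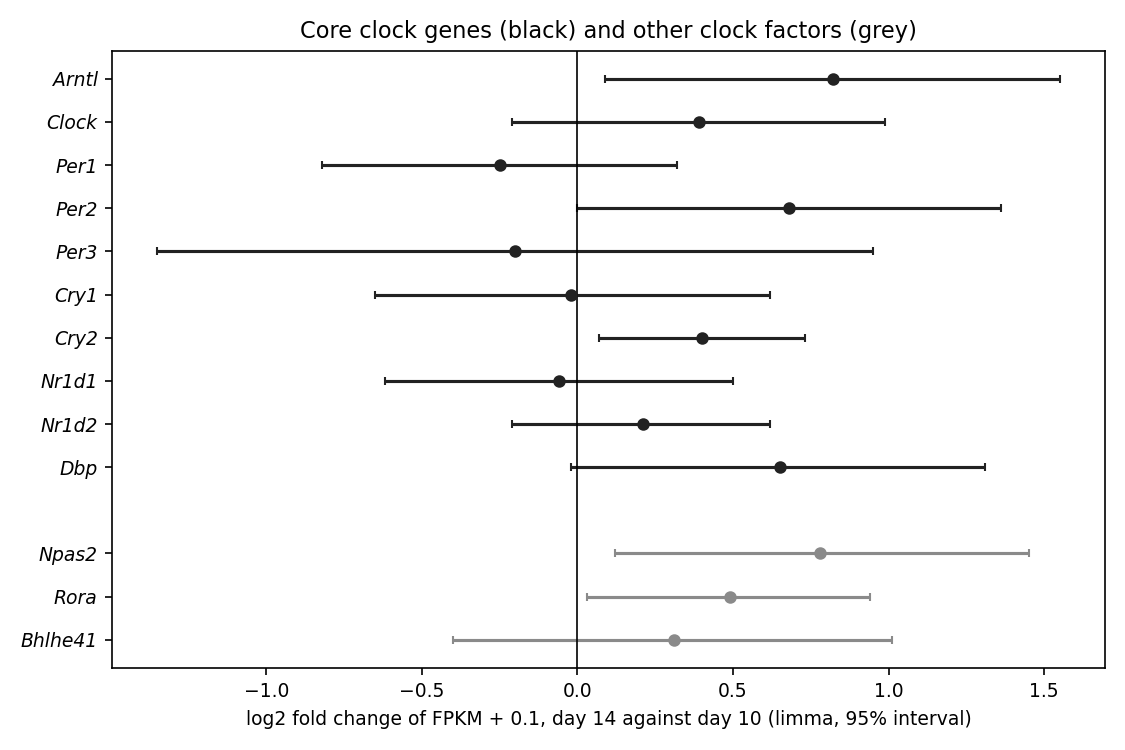
Log2 fold change from day 10 to day 14 on log2(FPKM + 0.1) of the 10 core clock genes (black) and of *Npas2*, *Rora* and *Bhlhe41* (grey), with 95% intervals from limma (3 samples per day). The intervals of *Arntl*, *Cry2*, *Npas2* and *Rora* lie above 0 and those of the other genes reach or include 0, and none of the genes shown passed the adjusted p of 0.05.

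Some of these genes overlap others on the opposite strand, and the library kit does not mark strand, so reads in shared bases cannot be told apart. *Nr1d1* shares 263 exon bases (8.55% of its own) with *Thra*, the thyroid hormone receptor α gene. *Dbp* shares 539 (18.0%) with *Sphk2*, a sphingosine kinase gene, and *Cry2* shares 295 (4.67%) with D930015M05Rik. *Thra* was at 6.01, 3.65 and 5.41 FPKM on day 10 and 6.44, 9.09 and 9.44 FPKM on day 14, separate where *Nr1d1* was not. *Sphk2* was at 3.27, 3.53 and 3.35 FPKM and then 2.13, 3.60 and 3.02 FPKM, overlapping where *Dbp* was separate. The part of these overlaps in the values was not tested.

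By mean level over the 6 samples the order was *Cry2* (21.8 FPKM), *Nr1d1* (20.5), *Arntl* (17.6), *Nr1d2* (11.7), *Cry1* (9.88), *Per1* (5.97), *Clock* (4.29), *Per2* (3.92), *Dbp* (3.22) and *Per3* (1.26). Of neighbouring genes in this order, the ranges over the samples were separate only for *Dbp* and *Per3*. *Cry1* also exceeded *Per1* in 6 of 6 samples, and each of the other neighbours kept its order in 3 to 5 samples. *Cry2* ranked 2808th of the 23284 genes on day 10 and 2311th on day 14, *Arntl* 3836th and 2482nd, and *Per3* 10499th and 10572nd.

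The clock genes were more spread among the samples of day 14 than among those of day 10. The SD of log2 values within a day was larger on day 14 in all 10 members, with a median of 0.41 against 0.19, and in 60.9% of the 9960 genes at 1 to 50 FPKM, with a median of 0.31 against 0.26. The count was 5 of 10 without day 14 replicate 1, when the share of those genes was 49.9%, and it was 8 to 10 without any other single library. Day 14 replicate 1 also had the fewest estimated reads of the 6 libraries, 4509324, and the part of depth was not tested. The pattern was seen before it was counted and is given without a test. If the free-text descriptions hold, which give later days for day 14 replicates 2 and 3, the spread of day 14 also covers different days. The part of this was not tested. A library of day 14 was the highest of the 6 for 9 members and the lowest for 5. Day 14 replicate 1 was the highest of the 6 for *Per2*, *Per3*, *Cry2* and *Dbp* and the lowest for *Cry1*, *Nr1d1* and *Nr1d2*. Day 14 replicate 2 was the highest for those last 3 genes. Day 14 replicate 3 was the highest for *Arntl* and *Clock* and the lowest for *Per1* and *Per3*. On day 10, replicate 1 was the highest for *Per1* and the lowest for *Per2*, *Arntl* and *Clock*, replicate 3 was the lowest for *Cry2* and *Dbp*, and replicate 2 was neither for any gene. The SD of log2 values over the 6 samples had a median of 0.35 over the members, against 0.34 over the 9960 genes at 1 to 50 FPKM, and ranged from 0.20 in *Nr1d2* to 0.64 in *Arntl*.

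**Figure D3:**
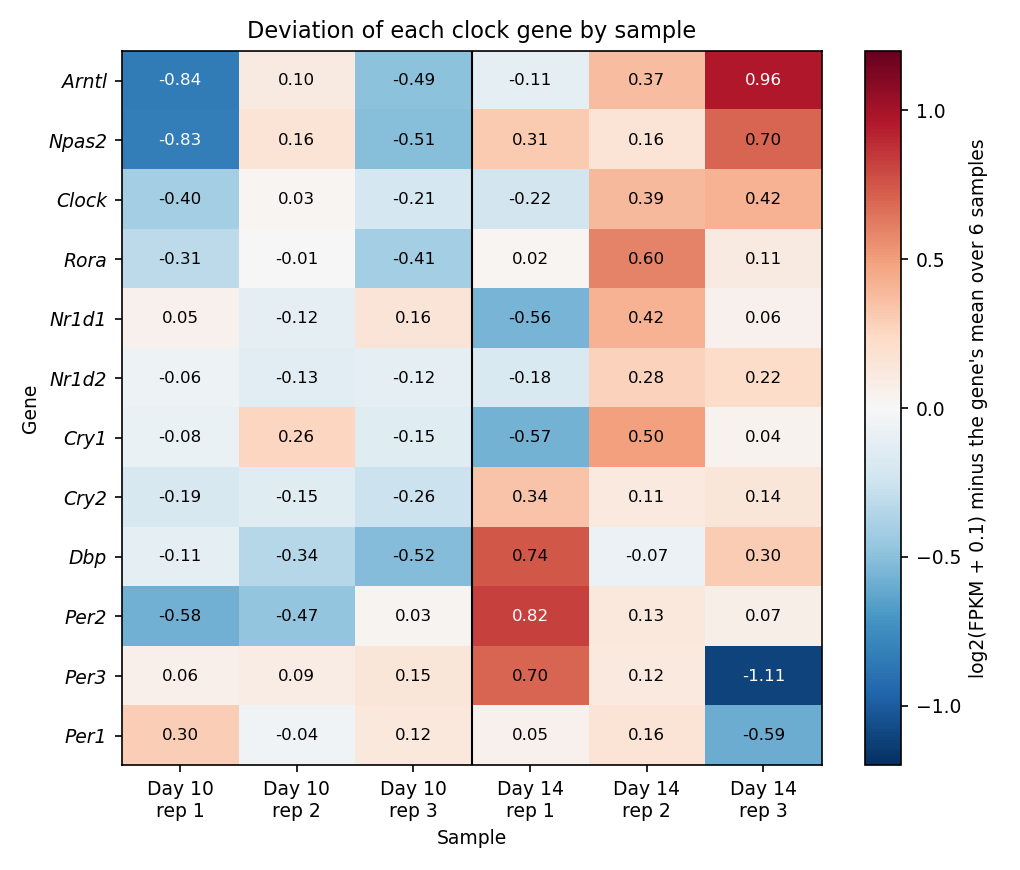
Deviation of the 10 core clock genes, *Npas2* and *Rora* (rows) in each sample (columns) from its mean over the 6 samples, in log2 units, by day and replicate. Day 14 replicate 3 is high for *Arntl* (0.96) and low for *Per3* (−1.11) and *Per1* (−0.59), and day 14 replicate 1 is high for *Per2* (0.82) and *Dbp* (0.74).

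How the members varied with each other was examined in 6 pairs over the 6 samples, 3 of *Arntl* with a gene of the E-box arm (*Dbp*, *Nr1d1* and *Per3*) and 3 within that arm, with exact permutation p-values adjusted over the pairs by Benjamini-Hochberg. *Arntl* and *Per3* had a Pearson r of −0.64 (exact permutation p = 0.143, adjusted p = 0.529) and a Spearman rho of −0.31 (p = 0.564, adjusted p = 0.790), and r was −0.19 without the 2 samples farthest from the median of *Arntl*. *Dbp* and *Nr1d1*, both driven by E-boxes in textbook accounts, had an r of −0.64 (exact permutation p = 0.176, adjusted p = 0.529) and a rho of −0.31 (p = 0.564, adjusted p = 0.790), and r was 0.25 without the 2 farthest samples. Both relations rested on single libraries, since r was 0.13 for the former without day 14 replicate 3 and 0.10 for the latter without day 14 replicate 1. Within days, from deviations from the day means, r was −0.74 for *Arntl* with *Per3* and −0.89 for *Dbp* with *Nr1d1*.

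The other 4 pairs gave no adjusted p under 0.790. *Arntl* and *Dbp* had an r of 0.34 (exact permutation p = 0.503, adjusted p = 0.942), a rho of 0.43 (p = 0.419, adjusted p = 0.790), an r of 0.18 without the 2 farthest samples and of −0.46 within days. *Arntl* and *Nr1d1* had an r of 0.14 (exact permutation p = 0.822, adjusted p = 0.942), a rho of 0.26 (p = 0.658, adjusted p = 0.790), an r of 0.27 without the 2 farthest samples and of 0.29 within days. *Dbp* and *Per3* had an r of 0.05 (exact permutation p = 0.942, adjusted p = 0.942), a rho of 0.03 (p = 1.00, adjusted p = 1.00), an r of −0.89 without the 2 farthest samples and of 0.30 within days. *Per1* and *Per2* had an r of −0.16 (exact permutation p = 0.732, adjusted p = 0.942), a rho of −0.26 (p = 0.658, adjusted p = 0.790), an r of 0.36 without the 2 farthest samples and of 0.28 within days.

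Over all 45 pairs of the 10 genes r ran from −0.84 to 0.93, positive in 26 pairs and negative in 19. The 4 pairs below were picked after their values were seen and are described without p, over 6 points that share libraries and depth. *Arntl* with *Clock* had an r of 0.93, which was 0.88 without the 2 farthest samples and 0.89 within days, and *Dbp* with *Cry2* had 0.92, 0.74 and 0.87. *Arntl* with *Per1* had −0.84, which was −0.02 without the 2 farthest samples and −0.82 within days. *Nr1d1* with *Cry1* had 0.79, which was −0.95 without the 2 farthest samples and 0.79 within days.

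**Figure D4:**
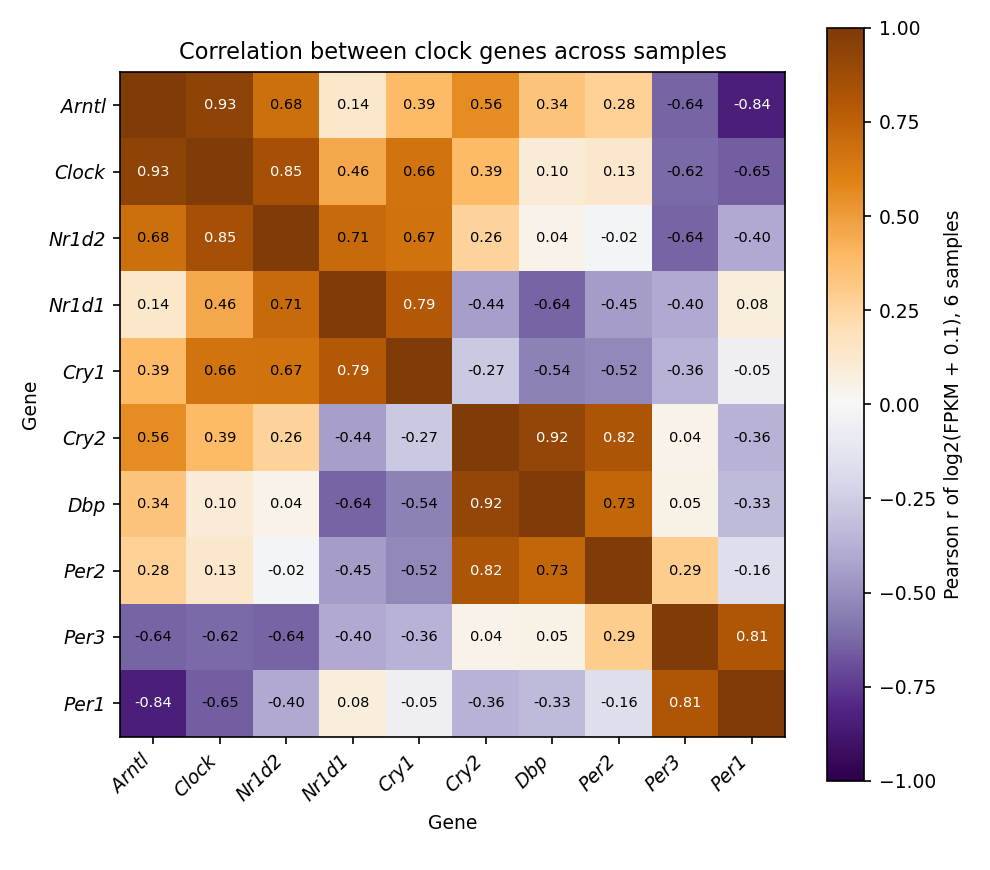
Pearson r between the 10 clock genes over the 6 samples, on log2(FPKM + 0.1), as a description without p. *Arntl* and *Clock* (0.93) and *Dbp* and *Cry2* (0.92) lie at the upper end and *Arntl* and *Per1* (−0.84) at the lower end.

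Among the 11161 other genes at a mean of at least 1 FPKM, *Cry2* had the 46th highest r to *Dbp*, and *Per2* the 566th, with an r of 0.73. *Clock* had the 139th highest r to *Arntl*, and *Npas2*, which encodes an alternative partner of ARNTL, the 173rd, with an r of 0.93. The genes most like *Dbp* were *Dennd5a* (r = 0.995), *Lyst* (0.984), *St6galnac2* (0.982), *Setdb2* (0.978) and *Plscr4* (0.977). Those most opposite to *Dbp* were *Cdkn3* (−0.989), *Cdc20* (−0.987), *Gfm2* (−0.983), *Cpsf3* (−0.983) and *Ncapg* (−0.978), of which *Cdkn3*, *Cdc20* and *Ncapg* act in cell division. *Cdc20*, the activator of the anaphase-promoting complex, was at 9.71, 10.5 and 12.8 FPKM on day 10 and 3.88, 9.09 and 5.38 FPKM on day 14, the reverse of the order of *Dbp*. The genes most like *Arntl* were *Cirh1a* (0.999), *Kctd20* (0.998), *Tnfrsf1a* (0.990), *Stk40* (0.987) and *Prg4* (0.986), and those most opposite were *Rwdd4a* (−0.984), *Kctd15* (−0.979), *Mettl21a* (−0.975), *Iffo1* (−0.975) and *Ldhb* (−0.974). *Prg4*, which encodes the lubricating proteoglycan of joints and tendons, was at 7.94, 33.6 and 13.8 FPKM on day 10 and 23.2, 42.4 and 67.2 FPKM on day 14, in the order of *Arntl*. With 6 samples, values near these ends are a ranking and carry no test.

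The rest of the clock was read from lists outside the members. None of the 12 other clock transcription factors passed the adjusted p, and 2 were higher at an unadjusted p under 0.05, as were 5.60% of all genes. In this list 6 means were higher and 6 lower, against 9085 higher and 10441 lower over all genes tested, and the median log2 fold change was 0.01. *Npas2* was at 3.29, 6.63 and 4.13 FPKM on day 10 and 7.37, 6.62 and 9.69 FPKM on day 14, overlapping only between 6.63 and 6.62 FPKM, with a log2 fold change of 0.78 ± 0.29 (SE) and an adjusted p of 0.431 from limma. *Rora*, which encodes a ROR activator that opposes REV-ERB at ROR elements, was at 22.0, 27.2 and 20.6 FPKM and then 27.7, 41.4 and 29.5 FPKM, without overlap, with a log2 fold change of 0.49 ± 0.20 (SE) and an adjusted p of 0.465. *Bhlhe41*, which encodes a repressor that binds E-boxes, had a log2 fold change of 0.31 and an adjusted p of 0.809.

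None of the 19 modifiers and cofactors of clock proteins passed, with 9 means higher and 10 lower and a median of −0.02. At an unadjusted p under 0.05 from limma, 1 was higher and 0 were lower, against 5.60% and 4.40% of all genes. *Nono* (−0.31, adjusted p = 0.548), *Csnk2a1* (−0.54, adjusted p = 0.582) and *Csnk2b* (−0.26, adjusted p = 0.641) had lower means on day 14. None of the 13 output genes passed, and 2 were higher at an unadjusted p under 0.05, against the same 5.60% of all genes. Their means were higher in 10 and lower in 3, with a median of 0.33. *Nampt*, the rate-limiting enzyme of NAD salvage and a target of CLOCK and ARNTL, was at 6.86, 9.33 and 10.2 FPKM on day 10 and 12.9, 12.1 and 15.3 FPKM on day 14, without overlap, with a log2 fold change of 0.62 ± 0.20 (SE) and an adjusted p of 0.378. *Usp2* (0.78, adjusted p = 0.461), *Fmo2* (0.94, adjusted p = 0.510) and *Lonrf3* (1.09, adjusted p = 0.556) followed. *Fmo2* was low, at 0.391 to 0.639 FPKM on day 10 and 1.04 to 1.19 FPKM on day 14. *Lonrf3* was lower still, at 0.161 to 0.178 FPKM and then 0.458 to 0.494 FPKM. Its values thus rest on few reads, since 3 reads on 1000 bases correspond to 0.388 to 0.665 FPKM.

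Sorted by the element that drives them in textbook accounts, the 12 E-box and D-box driven genes had a mean log2(FPKM + 0.1) of 1.84, 1.82 and 1.79 on day 10 and 2.27, 2.04 and 1.71 on day 14. The 6 ROR element driven genes had 2.37, 2.79 and 2.49 and then 2.61, 2.84 and 2.77. The days overlapped in both groups, and day 14 replicate 3, the highest in *Arntl*, was the lowest of the 6 in the first group. The first group includes the members *Per1*, *Per2*, *Per3*, *Nr1d1*, *Nr1d2* and *Dbp*, and the second includes *Arntl*, *Clock* and *Cry1*. The group means therefore repeat values given above, among them the low *Per1* and *Per3* of day 14 replicate 3. The medians of the log2 fold changes were 0.12 and 0.19, and no gene of either group passed.

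Genes that respond to stimuli which also act on *Per1* and *Per2* were examined too. The 12 immediate early genes, which respond to stimuli within minutes, summed to 6350, 4590 and 4750 FPKM on day 10 and 6140, 5630 and 4740 FPKM on day 14, overlapping, with 9 means higher and 3 lower and a median log2 fold change of 0.16. No gene passed, among them *Egr1* (0.44, adjusted p = 0.627) and *Jun* (0.35, adjusted p = 0.644). All 8 glucocorticoid response genes had higher means on day 14 with a median of 0.36, and none passed. Over all genes tested, 9085 means were higher and 10441 lower. *Dusp1* (0.01) and *Zbtb16* (0.03) were nearly unchanged. The lists are not independent, since *Dusp1* is also an immediate early gene here and *Tsc22d3*, *Fkbp5* and *Klf9* are also output genes. *Sgk1*, a kinase gene of this response, was at 289, 327 and 377 FPKM on day 10 and 530, 720 and 409 FPKM on day 14, without overlap, with a log2 fold change of 0.71 and an adjusted p of 0.397 from limma. The part of these responses in the levels of the clock genes was not tested.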

How the data were processed

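RNA-seq was performed by the authors on 3 samples of ECFP+ OBs per day, as 75-base single-end reads. Per the submitters' processing notes, TopHat2 2.0.13, Bowtie2 2.2.3, SAMtools 0.1.19 and Cufflinks 2.2.1 were used with the mm10 build, and the authors deposited 1 FPKM value per gene and sample. The gene annotation is not given in the sources used here. In 1 sample 25 symbols had been turned into dates and were restored by position, none of them a member.

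Days were compared with limma 3.58.1 in R 4.3.3 (lmFit, then eBayes with trend) after FPKM + 0.1 was taken to log2, with Benjamini-Hochberg adjustment over the 19526 genes with a mean FPKM above 0.1. The limma p-values set the difference between the days against the spread between these samples, moderated over genes. The permutation p-values count rearrangements of the same samples. As the number of mice per sample is not given, neither can be read as variation between animals. Depth was estimated from steps in low FPKM values at a fixed fragment length, and read numbers per gene are approximate. Exact permutation tests (two-sided) went through every regrouping or pairing of the 6 samples in Python 3.11.15, with ranks from SciPy 1.17.1. The scripts were tested on simulated data. The members, lists and tests were chosen with earlier results of these data known. Besides the members, up to 4 genes per clock or response list with the smallest p and the 5 genes most and least like *Dbp* and *Arntl* were named, apart from some genes that are not reported here. *Cdc20*, *Prg4* and the overlapping genes were described in more detail after their values were seen. Alternatives were another pseudocount, filter, scaling or variance model, a replicate block, and leaving out each sample.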

Additional observations from a re-analysis of the deposited data

How the results depend on the processing

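Under the alternatives, 145 of 150 log2 fold changes of the members kept their direction and 5 reversed, and 0 members passed the adjusted p in each setting, the smallest being 0.272. Another filter or variance model, or the replicate block, leaves a log2 fold change as it is, so those settings could not reverse one. The reversals came from leaving out 1 library, where *Per3* ranged from −0.60 to 0.31, *Cry1* from −0.27 to 0.26 (0.11 without day 10 replicate 2) and *Nr1d1* from −0.28 to 0.21 (0.01 without day 10 replicate 3). The count of members at an unadjusted p under 0.05 was 2, and became 4 with a filter of mean FPKM over 1, 1 with quantile normalization, 0 without the trend and 1 with an ordinary linear model, and 0 to 3 with 1 library left out (0 without day 10 replicate 1). The share of all genes at that p moved too, from 10.0% to 15.3%, 11.9%, 6.86%, 7.85% and, without day 10 replicate 1, 4.84%, in that order. Members over 2-fold numbered 0 to 1 with 1 library left out, the 1 being *Arntl*. Members with separate days numbered 3, and 3 to 6 with 1 library left out (leaving out libraries for this count, and the SD count, were chosen after seeing the data). Without day 14 replicate 1 they were *Per2*, *Cry2*, *Arntl*, *Clock*, *Nr1d2* and *Dbp*, when 12.7% of all genes were separate in that direction. Over all genes, 3 passed the adjusted p, 6 with an ordinary linear model and 3 to 76 with 1 library left out, 76 without day 14 replicate 2. Members with a larger SD on day 14 numbered 10, and 5 to 10 with 1 library left out (5 without day 14 replicate 1). The causes were not tested.

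With 1 library left out, r ranged from 0.16 to 0.67 for *Arntl* and *Dbp*, −0.06 to 0.25 for *Arntl* and *Nr1d1*, −0.80 to 0.13 for *Arntl* and *Per3*, −0.83 to 0.90 for *Dbp* and *Per3*, −0.77 to 0.10 for *Dbp* and *Nr1d1*, and −0.38 to 0.14 for *Per1* and *Per2*.

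The labels number the replicates 1 to 3 on both days. Deviations of same-numbered samples correlated at 0.058, −0.00584 and 0.0887, against −0.0978 to 0.0202 for samples with different numbers. The values for replicates 1 and 3 lay above that range, but all were small, and the numbers were not taken to pair the samples. With the replicate block, 0 members and 2 of all genes passed the adjusted p and 2 members had an unadjusted p under 0.05. Depth limits *Dbp* and *Per3* most, at 19.9 to 59.0 estimated reads per sample.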
